A study of Homo sapiens with 6 samples.

Results

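Intestinal transcription factors are DNA-binding proteins that set the identity of gut epithelial cells, and 9 of them were read in HT29 cells sensitive or resistant to methotrexate (MTX). The 9 genes were CDX1, CDX2, HNF4A, KLF4, KLF5, GATA6, SOX9, ATOH1 and HES1, taken by name, with every probe set annotated to that gene alone. They had 15 of the 54613 probe sets on the array. HNF4A, the nuclear receptor that drives enterocyte genes, had no probe set annotated to it alone in the annotation used here and was not analysed.

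The antifolate MTX blocks the making of reduced folates, and HT29 is a human colon adenocarcinoma line. For each of the sensitive line and the line that withstands 10 μM MTX, RNA of 3 samples was read on Affymetrix HG U133 PLUS 2.0 arrays, 1 sample per array. Sensitive cells grew in Ham's F12 medium with fetal bovine serum. Resistant cells came from stepwise selection with MTX and grew with dialyzed serum in a medium that holds no glycine, hypoxanthine or thymidine, so that resistance and medium cannot be told apart. No source used here says that the samples of a group were separate cultures, so p-values measure the spread between these samples only, which may be technical.

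The gut epithelium is renewed from stem cells at the base of the crypt, whose daughters become either absorptive or secretory cells. CDX1, CDX2, HNF4A and GATA6 maintain intestinal identity, KLF5 and SOX9 are active in dividing crypt cells, and KLF4 is found in cells that have stopped dividing and in goblet cells. Notch signalling divides the absorptive from the secretory fate, since the Notch-induced repressor HES1 silences ATOH1, the factor that starts the secretory program.

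The deposited values are linear MAS5 signals, 1 for each probe set. Each was divided by its array's median, and the quotient is called the scaled signal, with 1 as the level of the array median. Array medians were between 13.3 and 16.9. The 26833 probe sets whose scaled signal averaged 1 or more were tested with limma, which here borrowed most of each error from other probe sets. P-values were adjusted over all 26833 by Benjamini-Hochberg. Over all tested probe sets the log2 fold change had a median of -0.12, so changes are also given relative to it. Of 10 colon epithelium markers all had a mean scaled signal of at least 1. In a limma fit with the brightest probe set of each gene, 7 were lower and 1 higher in resistant cells at an adjusted p under 0.05. Among all tested genes 34.9% passed, 22.5% lower and 12.4% higher. The higher marker, CDH17, lay near the array median, and 9 of 17 alternatives ended its call. The summed scaled signal of the 10 markers was between 2229 and 2447 in sensitive arrays and between 1645 and 1867 in resistant ones. Of 12 markers of other lineages, 9 had a mean under 1. Their sum was between 5.23 and 8.64 in sensitive and between 17.9 and 22.2 in resistant arrays. Without COL1A1, the collagen chain of fibroblasts, it was between 4.34 and 7.77 in sensitive and between 7.12 and 8.39 in resistant arrays. COL1A1 had a log2 fold change of 4.03 at the brightest probe set, which was the one summed. There its sensitive signals were under the array median, and it entered the test through the resistant group. Its 3 other tested probe sets gave 0.07 to 1.54. The 3' to 5' signal ratio of ACTB, a sign of RNA integrity, averaged 1.14 ± 0.0220 in the sensitive group and 1.25 ± 0.0698 in the resistant group (SD, n = 3 each, exact permutation p = 0.1, two-sided). The same ratio of GAPDH, a second control, was higher by 0.0129 in the resistant group, against 0.112 for ACTB. Its groups overlapped (exact permutation p = 0.4, two-sided), so a difference in RNA integrity was seen with ACTB only. The sum of the epithelial markers, COL1A1 at its brightest probe set and the ACTB ratio thus differed between the same groups as the factors. Their part in the results was not tested.

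KLF4 was lower in the resistant cells at both its probe sets. In the fit as reported, SOX9 was lower at 1 of its 2 tested probe sets, and KLF5 and GATA6 did not pass. HES1 had higher values in resistant cells that did not pass either. Of 9 factor probe sets tested, 3 were called at an adjusted p under 0.05 (33.3%), and all 3 were lower. Among all tested probe sets 29.0% were called, 9.52% higher and 19.5% lower, so the share of factor probe sets called was close to that background. The split turned with the scaling, to 2 higher and 1 lower after quantile normalization and to 2 higher and 3 lower with the deposited signals or with division by the median of the tested probe sets. Over all probe sets 2554 were higher and 5237 lower as reported, 4176 and 4324 after quantile normalization and 3878 and 4668 with the last of these. At an unadjusted p under 0.05, limma gave 2 factor probe sets higher and 4 lower. When the brightest probe set stood for each gene, 1 of 5 tested factors was called, KLF4, against a background of 34.9% of 11835 genes (22.5% lower and 12.4% higher). The groups did not overlap at 4 of the 9 probe sets (44.4%), where the background was 42.3%. The median log2 fold change of the 9 was -0.31. None of the 9 tested probe sets reached a 3-fold change, the size the study required together with the adjusted p, which 3.45% of tested probe sets passed.

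**Figure D1:**
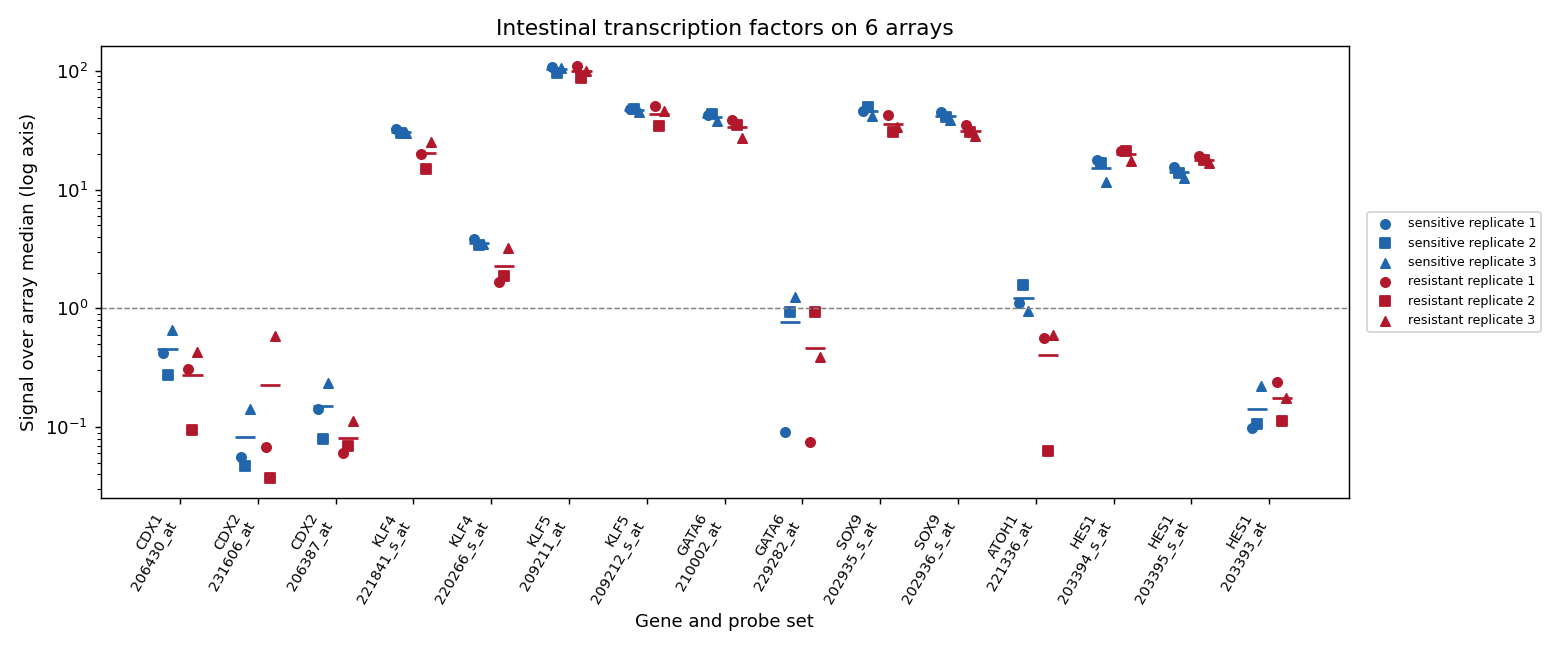
Scaled signal (signal over array median, log axis) of the 15 factor probe sets on each of the 6 arrays, with sensitive cells in blue, resistant cells in red, a marker shape for each replicate and a short bar at the mean of each group. The dashed line is the array median, and the probe sets of CDX1 and CDX2 lie below it on all 6 arrays.

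KLF4 is a zinc finger factor of the Krüppel-like family that slows cell division in the upper crypt. Its promoter, as RefSeq gives it for GRCh38.p14 (chr9:107489770-107490019, minus strand, the 250 bases before the start), is shown because KLF4 was the factor called at the level of genes and because Krüppel-like factors bind GC-rich boxes of the kind it holds. Printed 5′ to 3′ on the gene strand, its capitals mark the GC box GGGCGG or the same box on the opposite strand, CCGCCC:
KLF4: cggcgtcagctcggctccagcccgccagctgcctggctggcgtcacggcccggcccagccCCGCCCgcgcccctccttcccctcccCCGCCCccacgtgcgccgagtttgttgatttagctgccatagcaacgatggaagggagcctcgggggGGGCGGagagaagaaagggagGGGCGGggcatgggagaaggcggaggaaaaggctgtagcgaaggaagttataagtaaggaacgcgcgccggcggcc
The box occurs 4 times, at 190 and 164 bases before the start on the opposite strand and at 97 and 76 bases before it on the gene strand. Both strands were searched. Of 35116 RefSeq promoter windows of this length, 42.6% hold at least 1 such box and 13.9% hold at least 3. A match describes the letters and not a bound site.

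The scaled signal of KLF4 at 221841_s_at was 32.6, 30.0 and 29.7 in sensitive replicates 1 to 3 and 20.1, 14.9 and 25.4 in resistant replicates 1 to 3. The 3 resistant arrays all lay below the 3 sensitive ones, and they were spread more widely. The means were 30.7 ± 1.58 and 20.1 ± 5.24 (SD, n = 3 each), and the log2 fold change was -0.64 (standard error, or SE, of 0.17, adjusted p = 0.0074 from limma). The 95% interval of the fold was 0.499 to 0.821. Relative to all tested probe sets the change was -0.52, and 14.7% of tested probe sets had a lower log2 fold change.

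The second KLF4 probe set, 220266_s_at, was dimmer. It read 3.85, 3.41 and 3.45 in sensitive and 1.66, 1.89 and 3.24 in resistant cells. The groups did not overlap, but resistant replicate 3 lay just under the lowest sensitive array. The log2 fold change was -0.72 (SE 0.26, adjusted p = 0.041 from limma). Of 17 alternatives 12 ended the call, with adjusted p-values from limma and the other tests between 0.0047 and 0.31. It was not called without sensitive replicate 1 (-0.66), 2 (-0.75) or 3 (-0.74), nor without resistant replicate 1 (-0.53) or 2 (-0.62). Without resistant replicate 3 it was -1.01 and was called. At 221841_s_at the call was lost in 3 of 17 alternatives, all of them other tests, with adjusted p-values from limma and those tests between 0.00084 and 0.26.

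KLF5, the family member that promotes growth in dividing crypt cells, was bright on every array. At 209211_at the scaled signal was 107, 96.4 and 105 in sensitive and 109, 87.0 and 100 in resistant cells. The groups overlapped throughout, with the highest and the lowest array both resistant. The log2 fold change was -0.06 (95% interval -0.31 to 0.18, adjusted p = 0.73 from limma), so that folds from 0.809 to 1.13 are within the interval. At 209212_s_at it was -0.14 (95% interval -0.44 to 0.17, adjusted p = 0.53 from limma). The sign at 209211_at turned to 0.12 after quantile normalization, with no call. The log2 ratio of KLF4 to KLF5 within an array, taken at the brightest probe set of each, averaged -1.74 ± 0.0759 in the sensitive group and -2.32 ± 0.298 in the resistant group (SD, n = 3 each), a difference of -0.58. An exact permutation test gave a two-sided p of 0.1 (0.1 after adjustment over 3 pairs), which is the smallest that 3 against 3 arrays allow.

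SOX9, a high-mobility-group factor of stem, Paneth and other crypt base cells, had 2 tested probe sets with similar log2 fold changes. At 202936_s_at it read 44.6, 40.5 and 38.7 in sensitive and 35.1, 30.5 and 28.1 in resistant cells. No resistant array reached the lowest sensitive one. The mean fell from 41.3 ± 3.00 to 31.2 ± 3.59 (SD, n = 3 each), which is -0.40 as a log2 fold change (SE 0.14, adjusted p = 0.037 from limma). At 202935_s_at, the brighter one, it read 46.1, 49.1 and 41.8 in sensitive and 42.3, 30.4 and 33.9 in resistant cells. There resistant replicate 1 lay above sensitive replicate 3. The log2 fold change was -0.37 (95% interval -0.68 to -0.07) with an adjusted p of 0.061 from limma. The call at 202936_s_at was lost in 10 of 17 alternatives, among them quantile normalization (-0.22). It was not called without sensitive replicate 1 (-0.35), 2 (-0.42) or 3 (-0.45), nor without resistant replicate 2 (-0.39) or 3 (-0.33). The adjusted p at 202936_s_at was between 0.0074 and 0.16 over those alternatives. At 202935_s_at 5 of 17 alternatives gave a call, with adjusted p-values from limma and the other tests between 0.0066 and 0.27. It was called with the deposited signals, with division by the median of the tested probe sets and with a minimum mean of 2. It was also called with the replicate number as a block and without resistant replicate 1 (-0.51, adjusted p = 0.0066 from limma).

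GATA6, a zinc finger factor of proliferating crypt cells, was tested at 210002_at. Its scaled signal was 42.2, 43.2 and 38.1 in sensitive and 38.3, 35.2 and 27.0 in resistant cells. Resistant replicate 1 lay just above sensitive replicate 3, and the other two resistant arrays lay below the sensitive group. The means were 41.2 ± 2.73 (SD, n = 3) and 33.5 ± 5.83 (SD, n = 3), with a log2 fold change of -0.31 (95% interval -0.62 to 0.0029) that did not pass (adjusted p = 0.13 from limma). Without resistant replicate 1 it was -0.41 and was called (adjusted p = 0.033 from limma, the lowest of a range up to 0.51 over 17 alternatives). With the replicate number as a block in the fit it was called as well (adjusted p = 0.044 from limma). The other GATA6 probe set, 229282_at, was too dim to test, between 0.0752 and 1.25.

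HES1 is the basic helix-loop-helix repressor that Notch signalling induces through the DNA-binding protein RBPJ. Its promoter (RefSeq, GRCh38.p14, chr3:194135898-194136147, plus strand) and that of its relative HES4 (chr1:1000098-1000347, minus strand) are shown side by side because these Notch-pathway repressors had values that differed in opposite directions. Of these differences only that of HES4 was called. Each is the 250 bases before the start, 5′ to 3′ on the gene strand, with the core of the RBPJ motif, TGGGAA, in capitals where it occurs on either strand:
HES1: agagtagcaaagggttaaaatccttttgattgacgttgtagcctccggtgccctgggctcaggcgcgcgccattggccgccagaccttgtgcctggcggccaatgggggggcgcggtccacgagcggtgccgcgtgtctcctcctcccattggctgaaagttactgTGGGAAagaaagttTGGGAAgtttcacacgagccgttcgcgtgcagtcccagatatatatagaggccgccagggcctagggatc
HES4: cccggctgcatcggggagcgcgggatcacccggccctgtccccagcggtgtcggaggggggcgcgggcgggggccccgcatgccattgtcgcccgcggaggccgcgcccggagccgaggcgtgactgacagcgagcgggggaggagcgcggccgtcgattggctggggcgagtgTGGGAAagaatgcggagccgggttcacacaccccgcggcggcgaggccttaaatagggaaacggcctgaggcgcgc
HES1 holds the core 2 times on the gene strand, at 84 and 70 bases before the start, and HES4 holds it 1 time, at 76 bases. Of the 35116 promoter windows 20.8% hold at least 1 core and 2.90% hold at least 2.

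HES1 read 17.7, 16.7 and 11.5 in sensitive and 21.2, 21.2 and 17.4 in resistant cells at 203394_s_at. Sensitive replicate 3 was the lowest, and sensitive replicate 1 lay just above resistant replicate 3. The log2 fold change was 0.40 (95% interval 0.03 to 0.77) and did not pass (adjusted p = 0.098 from limma). Without sensitive replicate 3 it was 0.21. At 203395_s_at it read 15.6, 13.9 and 12.4 in sensitive and 19.1, 17.8 and 16.7 in resistant cells. Here all 3 resistant arrays lay above the sensitive ones. The log2 fold change of 0.36 (95% interval 0.03 to 0.70) had an adjusted p of 0.098 from limma.

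The side of the threshold on which HES1 lay turned on the scaling of the arrays and on other choices. Relative to all tested probe sets its changes were 0.52 and 0.48. After quantile normalization they were 0.57 and 0.52, and both probe sets were called higher (adjusted p = 0.019 and 0.0050 from limma). Both were also called with the deposited signals unscaled and with division by the median of the tested probe sets. With the main scaling and the replicate number as a block, both were called too (adjusted p = 0.028 and 0.044 from limma). When the brightest probe set stood for the gene, HES1 was called in 7 of 18 alternatives. Over all 17 alternatives the adjusted p from limma and the other tests ran from 0.019 to 0.51 at 203394_s_at and from 0.0050 to 0.35 at 203395_s_at. The third probe set of HES1, 203393_at, lay between 0.0986 and 0.241 and was not tested.

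**Figure D2:**
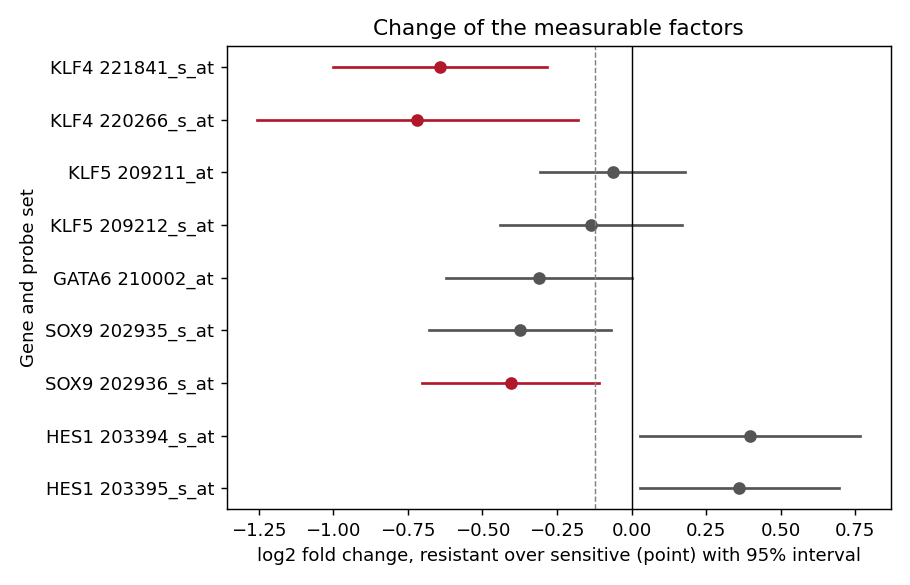
Log2 fold change, resistant over sensitive, of the 9 tested factor probe sets (points) with 95% intervals (lines), in red where the adjusted p from limma was under 0.05. The solid line is 0 and the dashed line the median of all tested probe sets, -0.12, and both KLF4 intervals lie to the left of both lines.

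CDX1, CDX2 and ATOH1 gave signals too dim to test. CDX1, a homeobox factor of the intestinal lineage, read 0.423, 0.273 and 0.656 in sensitive and 0.308, 0.0938 and 0.426 in resistant cells. The groups overlapped in part, with resistant replicate 2 below and sensitive replicate 3 above all arrays of the other group. CDX2, its close relative and a master regulator of intestinal identity, lay between 0.0375 and 0.580 at 231606_at and between 0.0602 and 0.234 at 206387_at. The groups overlapped at both probe sets. In a fit without the filter on dim signals, the adjusted p from limma was 0.63 for CDX1 and 0.81 and 0.67 for CDX2. No detection calls were used here, so such signals set no firm level and do not show that a gene was silent.

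ATOH1, the secretory fate factor, read 1.11, 1.59 and 0.955 in sensitive and 0.564, 0.0625 and 0.598 in resistant cells. Every resistant array lay below every sensitive one, at signals around or under the array median. In the fit without the filter its log2 fold change was -2.11 and did not pass (adjusted p = 0.14 from limma). The lowest of the 6 arrays was resistant replicate 2. The log2 ratio of HES1 to ATOH1 within an array differed by 2.51 between the groups, and that of CDX1 to CDX2 by -1.53 (exact permutation p = 0.1 each, two-sided, the smallest possible). Both rest on dim signals and are given as descriptions only. With a floor of 0.25 they were 1.84 and -0.81. The CDX1 to CDX2 value was read at 231606_at, where resistant replicate 3 stood apart at 0.580, and it was -0.78 with the mean of both CDX2 probe sets.

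**Figure D3:**
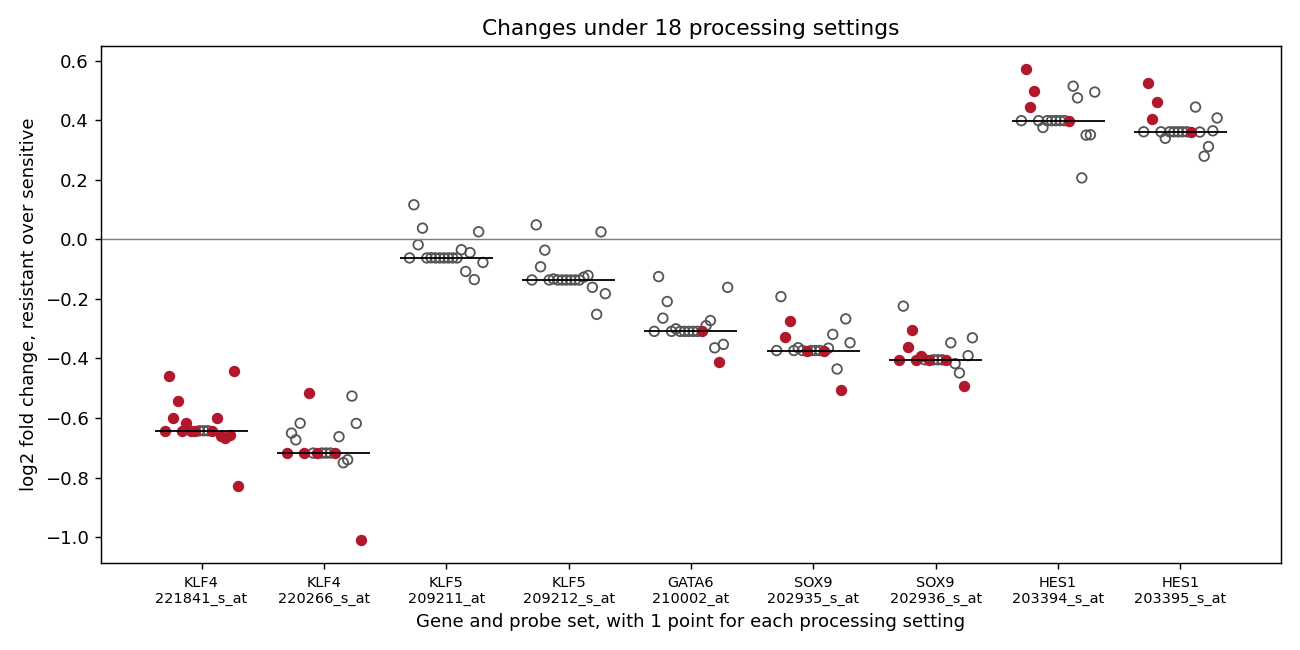
Log2 fold change, resistant over sensitive, of the 9 tested factor probe sets under 18 processing settings, 1 point for each setting, filled red where the adjusted p was under 0.05. The black bar is the value as reported. Every KLF4 and SOX9 point lies below 0 and every HES1 point above it, while KLF5 has points on both sides.

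The partners of these factors were read from lists of related genes at the brightest probe set of each gene, where 34.9% of all tested genes were called (22.5% lower and 12.4% higher). Among other intestinal transcription factors, 15 of 25 with a probe set were tested, and 7 were lower, 2 were higher and 6 were not called (60% called). Their median log2 fold change was -0.38, beside -0.31 for the factors described above and -0.10 for all tested genes. MYB, a factor of dividing crypt progenitors, read 38.4, 31.6 and 27.6 in sensitive and 9.14, 9.42 and 6.46 in resistant cells. All resistant arrays lay far below the sensitive ones (a log2 change of -1.97 with SE 0.18, adjusted p = 8.3e-12 from limma). ASCL2, a stem cell factor that Wnt signalling induces, fell by 1.64 on the log2 scale (adjusted p = 1.3e-09 from limma), and HNF4G, the closest relative of HNF4A, fell by 1.11 (adjusted p = 1.1e-05 from limma) and by 1.26 at its other probe set. PROX1 fell by 1.46 (adjusted p = 0.00075 from limma), but its other probe set gave 0.35, and with the mean over its probe sets it was at -0.82 and not called.

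In the Notch pathway 28 of 40 genes were tested, and 5 were lower, 3 were higher and 20 were not called (28.6% called, under the share over all genes), with a median of 0.05. That split turned with the scaling, to 5 lower and 6 higher with the deposited signals and to 4 lower and 10 higher after quantile normalization or after division by the median of the tested probe sets. HES6, a relative of HES1 known to oppose it, read 12.6, 8.57 and 13.3 in sensitive and 1.62, 1.19 and 0.864 in resistant cells. The groups were far apart, with a log2 fold change of -3.25 (SE 0.25, adjusted p = 7.0e-14 from limma). HES4 fell from 8.20 ± 1.61 to 5.01 ± 0.369 (SD, n = 3 each), or by 0.69 on the log2 scale (adjusted p = 0.0040 from limma). It was not called without sensitive replicate 1. RBPJ, the DNA-binding partner of the Notch receptor, fell by 0.55 (adjusted p = 0.0038 from limma) and gave -0.27 at its other probe set. With the mean over its probe sets it was at -0.35 and not called. MAML2, a coactivator of that complex, rose by 0.79 (adjusted p = 0.0033 from limma).

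Enterocyte genes had 13 of 31 tested, with 5 lower, 3 higher and 5 not called (61.5% called) and a median of -0.05. MUC13, a membrane mucin, dropped from 35.4 ± 2.57 to 5.70 ± 0.560 (SD, n = 3 each), with -2.64 as the log2 fold change (SE 0.17, adjusted p = 2.9e-16 from limma). The sodium and glucose transporter SLC5A1 fell by 1.03 (adjusted p = 0.00018 from limma) and the galectin LGALS4 by 0.71 (adjusted p = 3.9e-06 from limma). CDH17, a cadherin known as a CDX2 target, read 1.82, 0.480 and 1.14 in sensitive and 2.91, 1.92 and 2.15 in resistant cells. Its arrays did not overlap (log2 fold change 1.20, adjusted p = 0.027 from limma), but the signals were near the array median and 9 of 17 alternatives ended the call. Without sensitive replicate 2 the change was 0.67, without resistant replicate 1 it was 1.02 and without resistant replicate 2 it was 1.32, and none of these was called.

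Of 24 secretory lineage genes 13 were tested, with 3 lower, 1 higher and 9 not called (30.8% called, median -0.19). Quantile normalization gave 2 lower and 3 higher, and the deposited signals or division by the median of the tested probe sets gave 3 lower and 2 higher. SPINK4, a goblet cell peptide, read 3.01, 4.09 and 4.17 in sensitive and 0.0602, 0.844 and 0.272 in resistant cells. The groups lay apart, but all 3 resistant signals were dim, under the array median, so the size of the change is uncertain. SPINK4 entered the test through the sensitive group. The fitted log2 fold change of -3.95 (SE 0.67, adjusted p = 1.1e-05 from limma) was -1.80 with the log2 of signal plus 1. TFF3, the goblet cell trefoil peptide, fell by 1.97 (adjusted p = 6.4e-08 from limma). AGR3, a protein disulfide isomerase of secretory cells, rose by 0.56 (adjusted p = 0.0032 from limma), a call lost without sensitive replicate 2.

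In the Krüppel-like family beyond KLF4 and KLF5, 10 of 15 genes were tested, and 3 were higher, 2 were lower and 5 were not called (50% called, median -0.20), with 3 higher and 1 lower after quantile normalization. KLF12, a repressor, rose from 3.39 ± 0.227 to 10.4 ± 1.86 (SD, n = 3 each), or by 1.60 on the log2 scale (adjusted p = 1.5e-08 from limma), with 0.37 to 1.79 at its 4 other tested probe sets. KLF15 rose by 1.35 (adjusted p = 1.6e-06 from limma), but was at 0.78 and not called with the mean over all its probe sets (adjusted p = 0.14). KLF9 rose by 2.15 (adjusted p = 0.00053 from limma), but its sensitive signals were under the array median on all 3 arrays, and it entered the test through the resistant group. It was 1.15 with the log2 of signal plus 1, was not tested at a minimum mean of 2, and was 1.15 and not called with the mean over its probe sets. KLF11 fell by 0.87 (adjusted p = 0.00060 from limma) and gave -0.42 at its other tested probe set. With the mean over its probe sets it was at -0.64 and not called (adjusted p = 0.052).

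In the SOX family beyond SOX9, 7 of 18 genes were tested, and 1 was higher, 1 was lower and 5 were not called (28.6% called, median 0.26), with 2 higher and 1 lower after division by the median of the tested probe sets. SOX4, active in progenitor cells, read 99.8, 94.1 and 101 in sensitive and 61.7, 62.5 and 68.4 in resistant cells. It fell by 0.61 (adjusted p = 0.00020 from limma), and its 4 other tested probe sets gave -1.14 to -0.68. SOX8, of the same subgroup as SOX9, lay between 0.0634 and 0.149 in sensitive cells and read 2.83, 1.33 and 3.12 in resistant cells. SOX8 entered the test through the resistant group. The fitted change of 4.45 (adjusted p = 0.0011 from limma) rests on dim sensitive signals and was 1.58 in the alternative that moved it most. SOX8 was not tested at a minimum mean of 2. It was not called without resistant replicate 3.

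**Figure D4:**
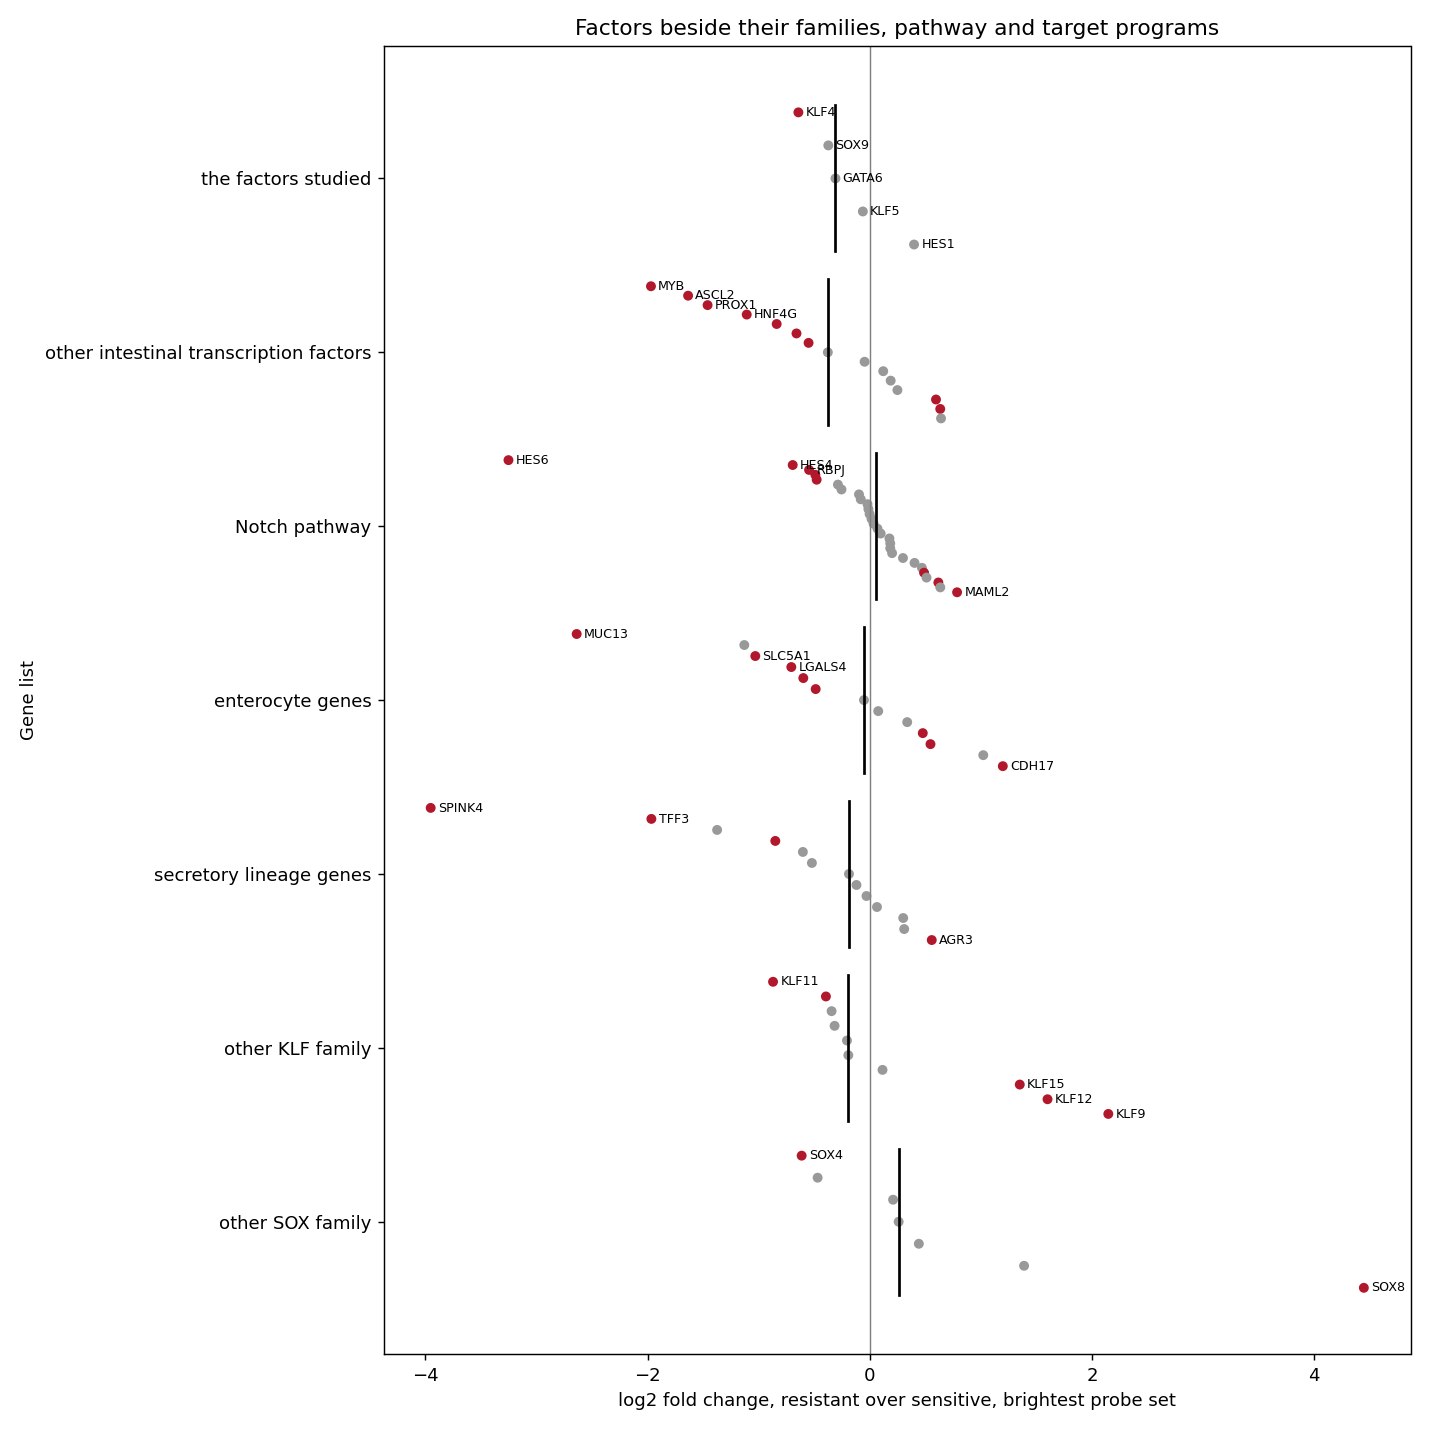
Log2 fold change, resistant over sensitive, at the brightest probe set of each tested gene of the factors studied and of the 6 lists of related genes, in red where the adjusted p from limma was under 0.05. The black bar is the median of each list, which ran from -0.38 for other intestinal transcription factors to 0.26 for other SOX genes.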

How the data were processed

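Gene expression was measured in 3 samples of sensitive and 3 of resistant HT29 cells, grouped by the submitters' labels. The values the authors deposited are MAS5 intensities on a linear scale. The MAS5 version and scaling target are not given in the sources used here. No scanner files or dates were used, so batches were not tested. The members and lists were chosen with earlier results of these data known.

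Of 54675 probe sets, 62 controls were left out. The platform annotation gave 41091 probe sets 1 gene, 1801 several and 11721 none. Probe sets of several genes were assigned to no gene. Symbols were updated through Entrez identifiers (41037 matched) with RefSeq of GRCh38.p14. Each signal was divided by its array median, as in the methods, floored at 0.01 and put on the log2 scale. Probe sets averaging 1 or more entered limma 3.58.1 (R 4.3.3; lmFit, then eBayes with trend). A gene was read at its brightest probe set. All probe sets annotated to 1 factor alone are given, and up to 4 genes of each list with the largest change among called genes without overlap. The procedure was tested on simulated data. Replicates correlated at 0.966 to 0.975 and no pair of arrays shared over 0.250% of signals. Promoters (7 of 9 factors matched) were searched with Python 3.11.15 and figures drawn with matplotlib 3.10.9. The number of arrays limits the precision. Alternatives covered scaling, low signals, the filter, the test, a replicate block, each array left out and the probe set taken.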

Additional observations from a re-analysis of the deposited data

How the results depend on the processing

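As reported, 3 factor probe sets and 1 factor gene were called, and 36 genes of the 6 related lists (13 higher, 23 lower). With the deposited signals unscaled or with division by the median of the tested probe sets, 5 factor probe sets (2 higher, 3 lower) and 3 factor genes (1 higher, 2 lower) were called. Quantile normalization gave 2 genes (1 higher, 1 lower) and a changed split of 2 higher and 1 lower among 3 probe sets. It also gave 22 higher and 20 lower in the related lists, against 22 and 22 after division by the median of the tested probe sets. These scalings placed the median log2 fold change of all genes at 0.02 and 0.00, against -0.10 as reported. The log2 of signal plus 1, and the mean over each gene's probe sets, each gave 2 factor genes, and a minimum mean signal of 2 gave 3. Without a filter 1 factor probe set was called.

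No factor probe set or gene was called by a two-group test with equal variances (the methods name a test of this kind without stating the variances; 0 after Benjamini-Hochberg adjustment; unadjusted, 1 probe set higher and 2 lower, and 1 gene lower), by one with unequal variances (0; unadjusted, 1 higher and 1 lower, and 0 genes), or by limma without the trend (0; unadjusted, 1 higher and 3 lower, and 1 gene lower). These tests called 2705, 217 and 5187 of all probe sets, against 7791. In the related lists the 2 two-group tests called 18 and 3 genes. With equal variances this was 5 among other intestinal factors, 2 in the Notch pathway, 4 enterocyte, 2 secretory, 3 KLF and 2 SOX genes. With unequal variances it was 1 each in the Notch, enterocyte and SOX lists and 0 in the other lists.

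With 1 array left out, 1 to 4 factor probe sets and 1 to 3 factor genes were called. Without sensitive replicate 1, 2 or 3, or resistant replicate 2, 1 probe set was called. Without resistant replicate 1, 3 genes were called, and without sensitive replicate 1 or resistant replicate 3, 2 genes. Without sensitive replicate 2, 5 enterocyte genes were called in place of 8. The mean of all probe sets left 2 KLF genes in place of 5, and a minimum mean of 2 left 1 SOX gene in place of 2.

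Whether same-numbered samples were paired is not known. Deviations of same-numbered arrays correlated at 0.14, 0.0072 and 0.079, and 4 of 6 arrays correlated best with their own number. With the replicate number as a block, 7 factor probe sets (2 higher, 5 lower), 4 factor genes (1 higher, 3 lower) and 42 related genes were called. Over all probe sets the block gave 9476 calls, against 7791 as reported. No called factor changed sign under any alternative, and the causes of these shifts were not tested.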

Other observations

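Genes transcribed opposite to the factors were read as well. GATA6-AS1, the antisense neighbour of GATA6, had scaled signals of 4.65, 3.75 and 4.23 in sensitive and 4.77, 5.08 and 3.69 in resistant cells. The groups overlapped, and the log2 fold change was 0.09 (standard error 0.20, adjusted p = 0.77 from limma). SOX9-AS1 lay between 0.0141 and 0.944 over its 2 probe sets and HNF4A-AS1 between 0.0352 and 0.545, and neither was tested.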
